A study of Mus musculus with 8 samples.

Results

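Mouse embryonic fibroblasts (MEFs) lacking Btg1 were compared with and without 16 hours of glutamine starvation, and the difference between the starved and the untreated Btg1 knockout (KO) arrays is described here gene by gene. Of the 8 arrays of the series, 4 carry this comparison, 2 untreated and 2 starved. The members are all rows of the deposited table of log2 values whose mean reached 3 in the untreated or in the starved KO group, which were 11845 of 18132 rows. A level of 3 is the normalized expression below which the study set genes aside as background. Of the members, 10256 reached it in both groups, 749 were below it only without starvation and 840 only after starvation. The rule left out Amy2b, with a higher group mean of 2.9996, and Agxt, with 2.9997, and it took in Spi1, with 3.0007, and Pou2f1, with 3.0013.

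The series holds WT and Btg1-/- MEFs, untreated (0 h) or starved (16 h), and each of these 4 groups has 2 arrays. The primary cells came from C57BL/6J embryos at day 13.5 and their RNA was read on Illumina MouseRef-8 v2 bead chips. The knockout is constitutive, so the untreated and the starved KO cells share it, and the WT arrays serve here to estimate the spread and to compare the response. Routine medium held heat-inactivated serum whereas the glutamine-free medium is described with dialyzed serum. The series holds no arrays of cells kept with glutamine for 16 h. The loss of glutamine, the change of medium and serum and the 16 h in culture therefore cannot be told apart. Starvation stands below for all of these together. The labels number the replicates but do not say that they came from separate embryos, so p-values measure only the spread between these arrays.

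The medians of all rows lay between 3.78 and 3.81 on the 8 arrays, and the replicates correlated across rows with r = 0.980 for untreated and 0.984 for starved KO cells. The row of Btg1 stood at 9.36 and 9.16 in the untreated KO and at 11.17 and 11.23 in the untreated WT arrays. It was thus 1.94 lower on the log2 scale in KO cells (limma adjusted p = 6.4e-05) but far above background, and whether its probe lies within the deletion was not given in the sources used here, so the row checks the labels only by this difference. Of 12 fibroblast marker genes, all 12 reached 3 on every KO array. Markers of macrophages were also measured on the KO arrays, where the median of 16 members was 8.12 and 6.25 in the untreated and 7.56 and 5.96 in the starved arrays, against 4.90 to 5.16 on the WT arrays. Replicate 1 of KO was the higher one for 15 of the 16 in both conditions. Within each replicate the median change with starvation was small, -0.30 in replicate 1 and -0.20 in replicate 2, and none of the 16 passed the test. At 3 or more on each KO array were 15 of the 16, while Itgam, Ptprc and Msr1, also on the list, were below 3 in both KO groups. In RNA from whole cultures, fewer cells of a type and less RNA per cell cannot be told apart.

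Glutamine feeds the synthesis of nucleotides, of other amino acids and of glutathione, and it fuels the tricarboxylic acid cycle. When an amino acid runs short, uncharged tRNA activates the kinase GCN2, phosphorylation of eIF2 alpha slows translation in general and favours translation of ATF4, and ATF4 together with its partners raises genes for amino acid synthesis, amino acid uptake and tRNA charging. Under prolonged stress the ATF4 targets CHOP (gene Ddit3), ATF3 and TRB3 (gene Trib3) tie this pathway to growth arrest and cell death. BTG1 is a small protein of the BTG/TOB family that binds the arginine methyltransferase PRMT1 and the CCR4-NOT deadenylase.

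Starvation changed 2038 of the 11845 members (17.2%) in the KO cells at a limma adjusted p under 0.05, of which 1100 rose (9.29%) and 938 fell (7.92%), and 3668 (31%) had an unadjusted p under 0.05. Of the 2038 changes 1311 were under 2-fold, while 321 genes rose (2.71%) and 406 fell (3.43%) by 2-fold or more. The cut-off of the study's methods, a fold change of 3, was met by 274 members (2.31%), 109 of them higher (0.92%) and 165 lower (1.39%) after starvation, and 252 of these passed the test (2.13%), 105 that rose (0.886%) and 147 that fell (1.24%). Over all members the median log2 change was 0.03, with a 5th percentile of -1.02 and a 95th percentile of 0.93. With 2 arrays a group, both starved arrays lay above both untreated ones for 30.7% of all members and below both for 26.4%, and an exact permutation test on a single gene cannot reach the threshold. The number of calls depended on single arrays, falling to 1043 without the first and to 1111 without the second starved KO replicate. All levels and changes below are on the log2 scale, where a difference of 1 is a 2-fold difference, and errors after ± are standard errors of the fit.

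**Figure D1:**
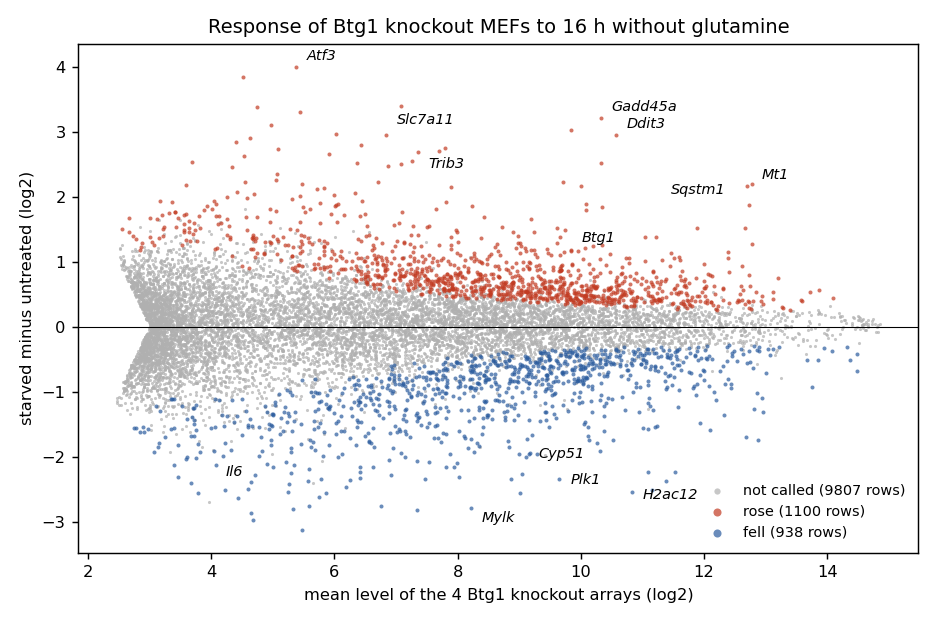
Log2 difference between starved and untreated Btg1 KO cells (vertical axis) against the mean level of the 4 KO arrays (horizontal axis, log2), 1 point a row. Red points are the 1100 rows that rose and blue points the 938 that fell at a limma adjusted p under 0.05, and the labelled genes are described in the text. The highest point among the labelled genes is Atf3 at 3.995.

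The regulators downstream of ATF4 formed the group with the highest median. Of 20 measured members of this list 17 rose and 1 fell, with a median log2 change of 1.12 against 0.03 over all members. Atf3, a stress-induced repressor of the ATF/CREB family, stood at 3.14 and 3.62 without and at 7.49 and 7.26 with starvation. Both untreated arrays were close to background and the starved ones were far above it, a change of 3.995 ± 0.59 (SE, limma adjusted p = 0.00214). Ddit3, which encodes CHOP, stood well above background before starvation, at 9.50 and 8.71, and reached 12.19 and 11.91, and Trib3, a pseudokinase that restrains ATF4, went from 6.29 and 5.72 to 8.71 and 8.69. In neither gene did the groups overlap, and the changes were 2.95 ± 0.26 (adjusted p = 0.000236) and 2.70 ± 0.30 (adjusted p = 0.00069). Ppp1r15a, the phosphatase subunit GADD34 that reverses eIF2 alpha phosphorylation, rose from 8.94 and 8.25 to 11.03 and 10.62. This was a difference of 2.23 ± 0.25, again without overlap (adjusted p = 0.000782).

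Other ATF4 targets that rose included secreted factors and metabolic enzymes. Stc2, a secreted glycoprotein, was measured at 4.84 and 5.24 in untreated and 7.82 and 7.83 in starved cells, and Fgf21, a stress hormone, at 4.93 and 3.81 before and 7.11 and 6.02 after starvation. For Fgf21 replicate 1 was clearly the higher one in both conditions, though the groups did not overlap, and its change of 2.20 carried a larger error (0.58, adjusted p = 0.0296) than that of Stc2 (2.79 ± 0.24, adjusted p = 0.000236). Chac1, which degrades glutathione, stood at 11.26 and 10.99 and rose by 1.52 to 12.57 and 12.71. Ndrg1 rose by 2.16, Vldlr by 1.52, Nupr1 by 1.27, the mTORC1 inhibitor Sesn2 by 0.96 and Ddit4, another one, by 0.75. The study lists a larger KO fold change for Ndrg1 than the 4.45-fold of the row used here, and the reason was not tested. Atf4 itself stood at 11.70 and 11.70 without starvation and reached 12.51 and 12.49. The arrays of a group lay very close together and the change was 0.80 ± 0.12 (adjusted p = 0.00205), smaller than that of most other members of the list. Atf5 and Cebpb, further bZIP factors, rose by 0.94 and 0.70. Eif2s2, a subunit of eIF2, was the member that fell, by 0.67, and Cebpg and Herpud1 did not pass the test (-0.41 and 0.30). With both arrays of KO replicate 1 or 2 left out, an alternative chosen after seeing the data, 12 and 11 of the 20 still rose.

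Genes for making, importing and charging amino acids rose in part. Of 11 genes of amino acid and one-carbon synthesis 7 rose and none fell, with a median of 0.87. Asns, asparagine synthetase, which takes its amide nitrogen from glutamine, went from 10.96 and 10.85 to 12.08 and 11.98. The groups lay clearly apart, and the change was 1.13 ± 0.13 (limma adjusted p = 0.000716). The mitochondrial folate enzymes Aldh1l2 and Shmt2 rose by 1.29 and 1.17, the alanine transaminase Gpt2 by 0.99, and Phgdh, Psat1 and Mthfd2 of the serine and one-carbon route by 0.65, 0.63 and 0.49. Cth, which makes cysteine from cystathionine, was 1.20 higher but missed the threshold (adjusted p = 0.0551).

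Among 14 amino acid carriers, 5 rose and none fell (median 0.54). Slc7a11, the cystine/glutamate exchanger, stood at 5.69 and 5.04 untreated and at 8.57 and 8.08 starved. Both starved arrays were far above both untreated ones, and the change was 2.96 ± 0.27 (limma adjusted p = 0.000275). Its heavy chain partner Slc3a2 rose by 1.55, the glycine carrier Slc6a9 by 1.89, the cationic carrier Slc7a3 by 1.29 and the neutral carrier Slc1a4 by 1.11. All 20 cytosolic aminoacyl-tRNA synthetases on the list were measured, 9 of them rose and none fell (median 0.50). Rars, the arginyl enzyme, moved from 10.91 and 11.05 to 12.07 and 12.01, and Sars, the seryl enzyme, from 8.83 and 8.48 to 10.00 and 9.66. Their groups did not overlap (changes of 1.05 and 1.18), and Gars, the glycyl enzyme, rose by 0.44. Without KO replicate 1 or 2, the genes that rose numbered 5 and 6 in synthesis, 4 and 4 among the carriers and 7 and 6 among the synthetases.

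Enzymes that use or make glutamine and glutamate moved both ways. Of 9 measured members 3 rose and 2 fell, and Glul, glutamine synthetase, was below the level of 3 in both KO groups. Oat, ornithine aminotransferase, which forms glutamate, fell from 12.64 and 12.71 to 11.61 and 11.71. This was a drop of 1.01 ± 0.08 without overlap (limma adjusted p = 0.000147). Gclc, which joins glutamate and cysteine, rose by 1.22, and Gfpt2 of the hexosamine route by 0.53. Prodh, proline dehydrogenase, rose from a mean below 3 and was at least 2.24-fold higher, taking 3 as its untreated level. The rises rested on single arrays, since none of the 3 passed without replicate 1 of the untreated or of the starved KO cells, with the 4 KO arrays alone, or without KO replicate 1 or 2, while 1 or 2 genes fell in each case. Of 16 genes of purine and pyrimidine synthesis, a pathway that takes nitrogen from glutamine, none passed the test, and their changes ran from -0.45 (Tyms) to 0.53 (Paics).

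The promoter stretches below show the core of the C/EBP-ATF composite site, TGATGNAA, through which ATF4 and C/EBP proteins bind DNA, for 6 of the genes that rose. Each is printed on the strand of the gene, the capitals mark each match, and TTGCATCA is the same core read on the other strand. RefSeq promoters on GRCm38.p6, from 250 bases before to 50 after the start, were searched on both strands.
Atf3, chr1:191183416-191183463, minus strand: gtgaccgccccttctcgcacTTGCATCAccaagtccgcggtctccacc
Fgf21, chr7:45615602-45615649, minus strand: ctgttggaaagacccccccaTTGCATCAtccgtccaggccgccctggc
Chac1, chr2:119351029-119351076, plus strand: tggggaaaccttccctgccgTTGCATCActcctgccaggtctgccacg
Slc7a11, chr3:50443633-50443680, minus strand: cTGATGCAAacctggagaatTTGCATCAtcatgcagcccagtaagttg
Asns, chr6:7693210-7693252, minus strand: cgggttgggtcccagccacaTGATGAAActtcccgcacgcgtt
Aars, chr8:111033710-111033757, plus strand: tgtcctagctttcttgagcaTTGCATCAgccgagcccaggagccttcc
The match began 110 bases before the start in Atf3, 139 in Fgf21, 193 in Chac1, 66 and 47 in Slc7a11, which holds 2 matches, 23 in Asns and 112 in Aars. Genes with this core in a promoter were 7 of 18 ATF4 and CHOP regulators (38.9%), 3 of 10 amino acid carriers, 5 of 13 synthetases and 1 of 9 synthesis genes for which the table held a promoter, against 4.51% of all 27025 genes in the table. A match is a description of these letters and not a measured binding site.

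**Figure D2:**
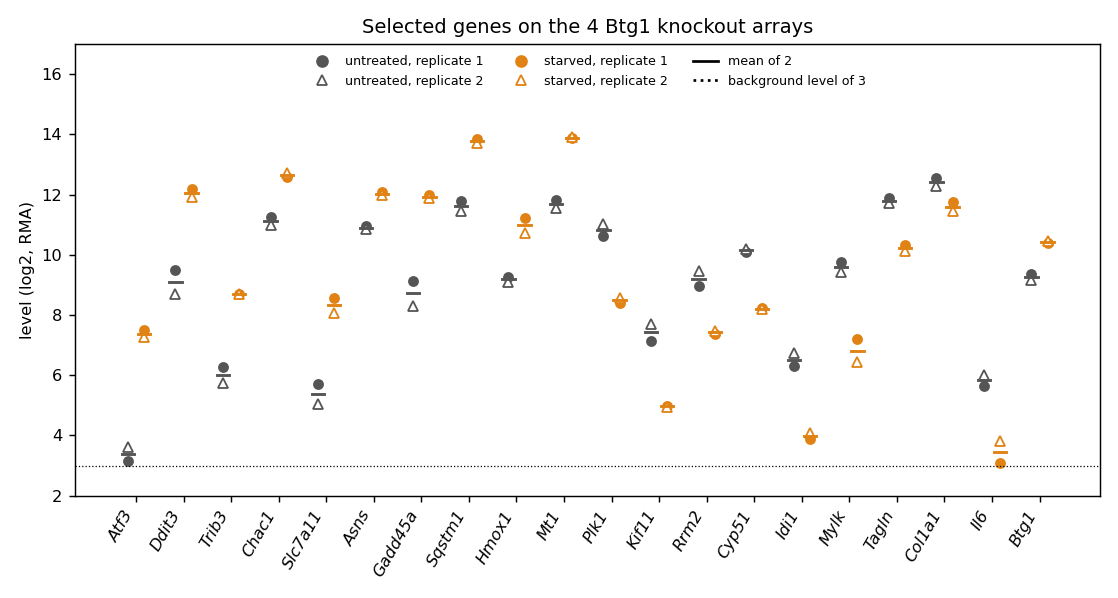
Level of 20 genes on the 4 Btg1 KO arrays (vertical axis, log2 RMA values), with replicate 1 as circles, replicate 2 as triangles, untreated in grey, starved in orange and the mean of 2 as a bar. The dotted line is the level of 3. In each of the 20 genes the starved and the untreated arrays lie apart, with Atf3 starting near the line and Il6 ending near it.

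Genes of growth arrest and DNA damage responded unevenly. Gadd45a, which encodes a stress sensor that binds PCNA and p38-activating kinases, rose from 9.13 and 8.29 to 11.97 and 11.89. The untreated arrays differed from each other but both lay far below the starved ones, a change of 3.22 ± 0.30 (limma adjusted p = 0.000312). Of 18 members of the GADD45 and p53 list 5 rose and 1 fell (median 0.22). Mdm2, the ubiquitin ligase of p53, rose by 0.85, the repair gene Ddb2 by 1.38 and Cdkn1a, the CDK inhibitor p21, by 0.51, while the death receptor Fas fell by 0.90. Without KO starved replicate 1 the counts were 2 and 0, and they were 3 and 0 without starved replicate 2, without KO replicate 1 or 2 and with the 4 KO arrays alone. The fall of Fas was lost when any single array other than KO untreated replicate 2 was left out. Within the BCL2 family, 1 of 14 members passed the test, a share not above the 17.2% called over all members. The gene was Bok, a pore-forming member, which stood at 8.86 and 9.32 and fell to 7.23 and 7.48. The pro-apoptotic genes Bbc3 and Bcl2l11, which encode PUMA and BIM, were 0.45 and 0.02 different and did not pass.

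Part of the genes of the oxidant defence rose. NRF2 is a transcription factor that electrophiles and oxidants stabilise, and it drives genes of glutathione synthesis and quinone and heme metabolism. Of 21 measured members 9 rose and none fell, with a median of 0.58. Hmox1, heme oxygenase, went from 9.28 and 9.10 to 11.23 and 10.72, and Nqo1, a quinone reductase, from 5.98 and 6.46 to 7.98 and 7.97. Both changes were free of overlap, at 1.79 ± 0.17 and 1.76 ± 0.20 (limma adjusted p = 0.000354 and 0.000841). Gclm, the modifier of glutamate-cysteine ligase, rose by 1.18 and the glutathione transferase Gsta4 by 1.15, but the thioredoxin reductase Txnrd1 (0.58, adjusted p = 0.126) and Gpx1 (-0.20) did not pass. Slc7a11 and Gclc, described above, are also on this list. Without KO replicate 1 the number that rose was 4, and without replicate 2 it was 7. It was 5 without KO starved replicate 1 and 6 without KO untreated replicate 1.

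The zinc-binding metallothioneins rose. Mt1 was measured at 11.82 and 11.56 in untreated and 13.87 and 13.90 in starved KO cells, and Mt2 at 3.62 and 4.16 before and 6.06 and 6.41 after starvation. All starved values were above all untreated ones in both genes, and the changes were 2.20 ± 0.16 (limma adjusted p = 7.99e-05) and 2.35 ± 0.35 (adjusted p = 0.00214). Both genes are close in sequence, and how far their probes tell them apart was not tested. The zinc exporter Slc30a1 rose by 1.08, and the importer Slc39a10 fell by 0.90. Of 9 metallothioneins and zinc carriers 4 rose and 1 fell, and with the 4 KO arrays alone 3 rose and none fell. The fall of Slc39a10 also did not pass with no filter on low values.

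Part of the autophagy and lysosome genes rose, and Sqstm1 had the largest change of both lists. This gene encodes p62, a receptor that carries ubiquitinated cargo into autophagosomes, and it stood at 11.79 and 11.44 without and 13.85 and 13.70 with starvation. The rise of 2.16 ± 0.12 came with both starved arrays above both untreated ones (limma adjusted p = 2.54e-05). Of 20 autophagy genes 5 rose and 1 fell (median 0.29), among them the receptor Optn (0.86), Gabarapl1 (0.62), Atg12 (0.52) and Atg5 (0.37), whereas Wipi1 fell by 0.57. When the variance was moderated without an intensity trend, 2 of the 20 rose and none fell. Of 26 lysosomal genes 10 rose and none fell (median 0.38). Subunits of the proton pump made up 4 of the 10, with Atp6v1b2 higher by 0.86, Atp6v1d by 0.74, Atp6v1h by 0.70 and Atp6v0d1 by 0.48. The sialidase Neu1 rose by 0.88 and the calcium channel Mcoln1 by 0.70. Tfeb, a transcription factor of lysosomal genes, lay near background, at 2.999 and 3.47 untreated and 2.57 and 2.52 starved, and did not pass (adjusted p = 0.309). With KO replicate 1 or 2 left out, 1 autophagy gene rose in either case, and 6 and 5 lysosomal genes did. Without untreated replicate 2 or starved replicate 1 of KO these counts were 1 autophagy and 5 lysosomal genes.

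Mitotic genes fell together. Of 28 measured members of this list 22 fell and none rose, and all 28 log2 changes were below 0 (median -1.58, or -1.53 with the 4 genes that ended below 3 taken at 3). Plk1, which encodes a kinase of mitotic entry and spindle assembly, went from 10.62 and 11.03 to 8.39 and 8.57, and Kif11, the kinesin that separates the spindle poles, from 7.14 and 7.71 to 4.98 and 4.95. The starved arrays agreed closely in both genes and lay far below the untreated ones, with drops of 2.34 ± 0.16 (limma adjusted p = 4.84e-05) and 2.46 ± 0.23 (adjusted p = 0.000316). Birc5, which encodes survivin of the chromosomal passenger complex, fell by 2.27, the kinesin Kif2c by 2.10, Cdc20, an activator of the anaphase-promoting complex, by 1.86, Aurka by 1.74 and Foxm1, a transcription factor of mitotic genes, by 1.80. Cdk1 lay near background, at 3.36 and 3.51 untreated and 2.41 and 2.17 starved. Its groups did not overlap but the gene missed the threshold (adjusted p = 0.0604), as did Ccna2 and Ttk, whose starved means also lay below 3. Untreated replicate 2 was the higher one in Plk1, Kif11, Birc5, Cdc20 and Aurka. Without KO replicate 1 the list still had 22 genes that fell, and without replicate 2 it had 18.

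Replication genes fell in part. Of 28 members 15 fell and 1 rose (median -0.81). Ccne2, cyclin E2, which starts S phase, stood at 7.58 and 8.25 and fell to 5.84 and 5.87, and Rrm2, the regulated subunit of ribonucleotide reductase, at 8.96 and 9.45 and fell to 7.38 and 7.47. The groups lay clearly apart in either gene, and the drops were 2.06 ± 0.22 and 1.78 ± 0.18 (limma adjusted p = 0.000659 and 0.000416). Thymidine kinase Tk1 fell by 1.85, the helicase subunits Mcm7, Mcm5 and Mcm6 by 1.47, 1.14 and 0.82, and Rfc5 of the clamp loader by 1.41. Cdt1, which loads the helicase onto origins, was the member that rose, from 9.45 and 9.71 to 10.36 and 10.18. Its change was 0.69 ± 0.15 (adjusted p = 0.0148), and it did not pass when the variance was moderated without an intensity trend. Among 17 G1 regulators 2 rose and 3 fell, with E2f3 higher by 0.81, and Ccnd3 and Cdkn2d lower by 0.74 and 1.09. E2f7, a repressor of E2F targets, fell below 3 in the starved cells and was at least 2.09-fold lower. The counts without KO replicate 1 or 2 were 12 and 10 of the replication genes that fell. That number was 9 without untreated replicate 2 and 10 without starved replicate 1 of KO, and among the G1 regulators none passed without KO replicate 1.

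The letters TTTGAA, the core of the cell cycle homology region near the start of many mitotic genes, are shown for 4 of the mitotic genes that fell, in capitals and on the strand of the gene. TTCAAA is the same core read on the other strand.
Kif11, chr19:37376343-37376381, plus strand: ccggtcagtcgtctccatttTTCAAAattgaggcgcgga
Kif2c, chr4:117178850-117178895, minus strand: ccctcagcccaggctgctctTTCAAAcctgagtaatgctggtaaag
Cdc20, chr4:118437344-118437381, minus strand: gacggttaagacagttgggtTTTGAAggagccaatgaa
Top2a, chr11:99024190-99024232, minus strand: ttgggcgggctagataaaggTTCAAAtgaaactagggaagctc
In the same RefSeq promoters the core was present on either strand in 18 of 24 mitotic genes (75%) and in 3 of 25 replication genes (12%), against 20.2% of all 27025 genes with a promoter in the table. A core of so few letters is common, and its presence is not a measured site.

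Cholesterol genes fell as a group. Sterol synthesis and uptake is driven by SREBP-2 (gene Srebf2), which moves to the nucleus when membrane sterol is low. Of 20 measured genes 17 fell and none rose, with all 20 changes below 0 and a median of -1.64, or -1.51 with the 2 genes that were below 3 in one group taken at 3. Idi1, the isopentenyl isomerase, stood at 6.31 and 6.72 before and 3.88 and 4.08 after starvation. Starved and untreated arrays lay well apart, and the drop was 2.54 ± 0.27 (limma adjusted p = 0.000651). Cyp51, the lanosterol demethylase, fell from 10.09 and 10.19 to 8.22 and 8.19, with the arrays of a group close together and an adjusted p of 2.54e-05. Stard4, a sterol carrier, fell by 2.29, Hsd17b7 by 1.75, Msmo1 by 1.75, Insig1, which holds SREBP in the ER, by 1.74, Fdps by 1.55, Sqle by 1.31 and Srebf2 by 1.29. Sc5d fell below the level of 3 and was at least 3.44-fold lower. In both cases of a KO replicate left out, 12 of the 20 fell.

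Fatty acid genes were lower as well, in part. Of 10 measured genes 4 fell and none rose (median -0.57, or -0.39 with the gene that was below 3 in one group taken at 3), with the desaturases Fads2 and Scd2 lower by 2.16 and 1.71, the elongase Elovl6 by 1.10 and Fads1 by 0.53. Fads2 stood at 7.46 and 7.55 and then at 4.97 and 5.71. Without untreated replicate 2 or starved replicate 1 of KO 2 of the 10 fell. The sterol regulatory element TCACNCCAC was found on either strand in 0 of 14 sterol and 0 of 7 fatty acid genes with a promoter in the table, against 1.44% of all genes there, which says only that these exact letters are not in these windows.

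Genes of the contractile apparatus fell. Smooth muscle type actins and their regulators mark contractile, serum-stimulated fibroblasts and are driven by SRF and its actin-sensing cofactors. Of 15 members 13 fell and none rose, all 15 changes were below 0, and the median was -1.12. Mylk, myosin light chain kinase, went from 9.77 and 9.43 to 7.19 and 6.45, and Tagln, an actin-binding protein, from 11.88 and 11.71 to 10.32 and 10.14. Neither gene showed overlap, and the drops were 2.78 ± 0.25 and 1.57 ± 0.13 (limma adjusted p = 0.000275 and 0.000147). The smooth muscle myosin Myh11 fell by 2.37, Lmod1 by 2.17, desmin (Des) by 1.52, vinculin (Vcl) by 1.09 and the smooth muscle actin Acta2 by 0.51. Among 11 YAP and SRF-type matricellular genes 5 fell and none rose, including Thbs1 by 1.10, Ankrd1 by 0.89, Ccn1 by 0.74 and Srf itself by 0.80. The contractile genes that fell numbered 8 without KO replicate 1 and 10 without replicate 2.

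Part of the matrix genes fell. Of 17 collagens 8 fell and none rose (median -0.63), with Col1a1 at 12.55 and 12.27 untreated and 11.75 and 11.45 starved. The drop of Col1a1 was 0.82 ± 0.14 without overlap (limma adjusted p = 0.00409), and those of Col1a2, Col3a1 and Col2a1 were 0.63, 1.15 and 1.45. When KO replicate 1 was left out 3 collagens fell, and without replicate 2 the number was 7. It was 4 without KO untreated replicate 1, 5 without KO starved replicate 1 and 4 without KO starved replicate 2. Of 20 other matrix genes 4 fell and none rose, and 2 fell with the 4 KO arrays alone. The share of 4 was near the 17.2% called in either direction over all members and above the 7.92% that fell. Among the 4 were the proteoglycan Lum (1.82) and the crosslinking enzyme Loxl3 (1.82). In the TGF-beta and BMP list 5 of 18 fell and 1 rose, and 6 and 3 fell with none that rose without KO replicate 1 or 2. Fst, follistatin, which binds activin, fell by 1.92, and the ligand Tgfb3 by 1.79, while Grem1, a secreted BMP antagonist, rose from 9.30 and 9.54 to 11.13 and 11.41. That rise was 1.85 ± 0.30 (adjusted p = 0.00367). Bmp4 had a log2 change of -1.97, but replicate 1 was far above replicate 2 in both conditions and the gene did not pass (adjusted p = 0.0662).

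Chaperones of the endoplasmic reticulum (ER) were lower in part. Of 17 measured genes of ER folding and degradation 8 fell and 1 rose (median -0.48, or -0.35 with the 2 genes that were below 3 in one group taken at 3). Calr, the calcium-binding chaperone calreticulin, fell from 9.97 and 10.04 to 8.97 and 8.68, a drop of 1.18 ± 0.15 (limma adjusted p = 0.00106). The disulfide isomerases Pdia6, Pdia4 and P4hb fell by 0.85, 0.69 and 0.52, and Hsp90b1 by 0.43. Hspa5, which encodes BiP, had a log2 change of 0.00 with an adjusted p of 0.992, and Dnajb9, a BiP cofactor, rose by 0.60. The rise of Dnajb9 did not pass when the variance was moderated without an intensity trend. Those that fell were 3 without KO replicate 1, 5 without replicate 2 and 5 without KO starved replicate 1.

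**Figure D3:**
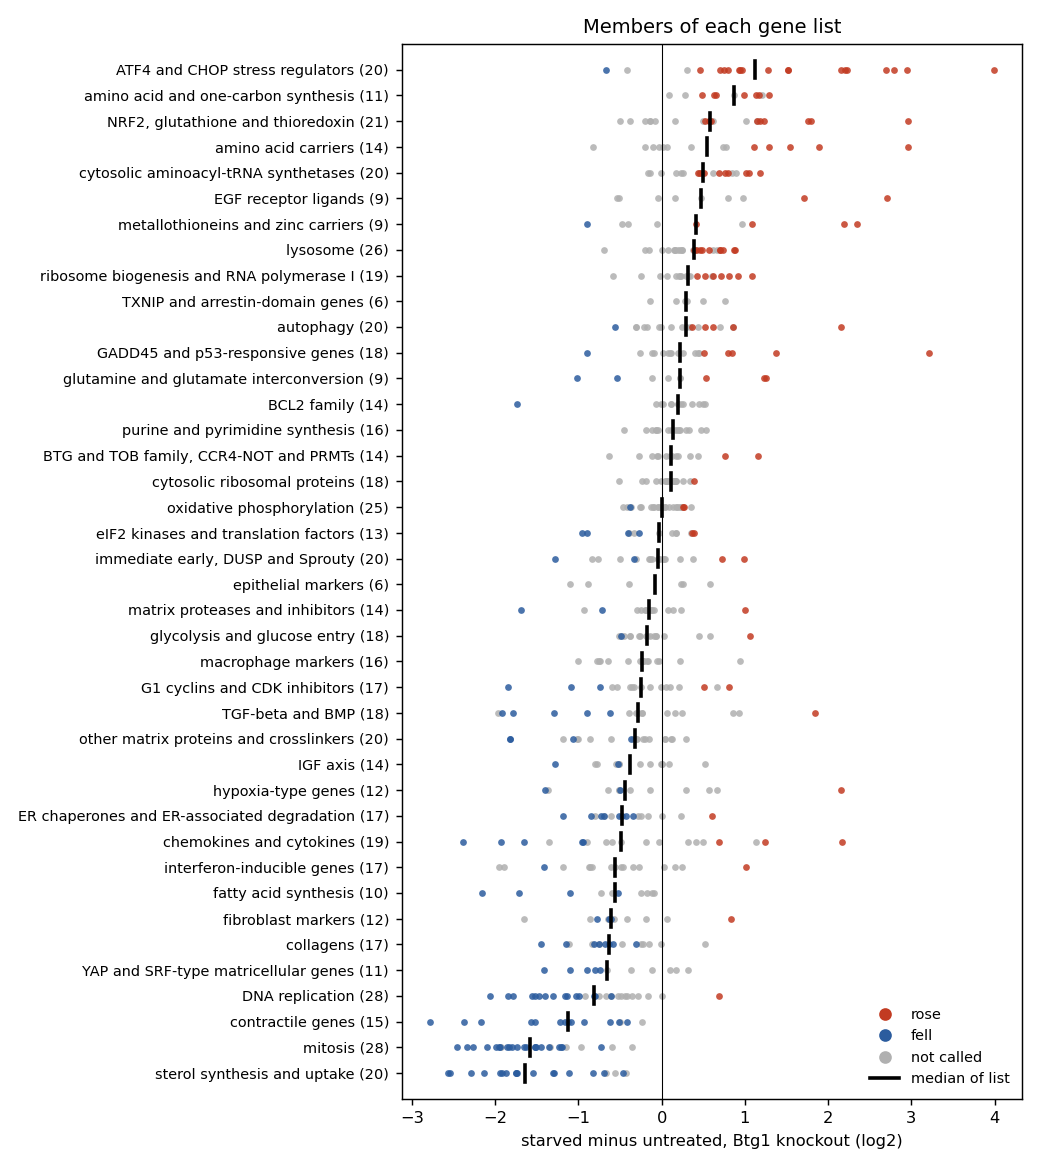
Log2 change with starvation (horizontal axis) of every measured member of each gene list with 6 or more members in Btg1 KO cells, with the number of members in parentheses and the median as a black bar. Red points rose, blue points fell and grey points did not pass a limma adjusted p of 0.05. ATF4 and CHOP regulators have the highest median (1.12) and sterol genes the lowest as fitted (-1.64).

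Genes of oxidative phosphorylation, cytosolic ribosomal proteins and glycolysis passed the test less often than the 17.2% over all members. Of 25 oxidative phosphorylation genes 2 rose and 1 fell with a median of 0.00, and none passed when any single KO array was left out. Of 18 cytosolic ribosomal proteins 1 rose, Rps6 by 0.39 (median 0.11). Ribosome biogenesis was higher in part, since 7 of 19 genes rose and none fell, with Nop56, a snoRNP protein, at 10.21 and 10.20 untreated and 11.21 and 11.04 starved (change 0.92 ± 0.10, limma adjusted p = 0.000665). Those that rose were 3 without KO starved replicate 2, 4 without KO untreated replicate 1, and 3 and 4 without KO replicate 1 or 2. Among 13 eIF2 kinases and translation factors 2 rose and 4 fell, the cap-binding protein Eif4e by 0.89 and the kinase Eef2k by 0.96. With the 4 KO arrays alone none of the 13 rose and 1 fell, without KO replicate 1 the counts were 1 and 0, and without replicate 2 none passed. Of 18 glycolytic genes 1 rose (Eno2, 1.06) and 1 fell (Tpi1, by 0.49), and none passed without KO replicate 1 or 2. Of 12 hypoxia-type genes 1 rose and 2 fell, a share above the 17.2% over all members. When the variance was moderated without an intensity trend, 1 of them rose and none fell. Ndrg1, also counted as an ATF4 target, rose by 2.16, and the peptide hormone gene Adm fell by 1.40.

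Btg1 itself rose in the KO cells. Its row went from 9.36 and 9.16 to 10.40 and 10.46, a change of 1.16 ± 0.10 (limma adjusted p = 0.00018) beside 1.20 in WT cells. Btg2 stayed below 3 on all 4 KO arrays, between 1.95 and 2.82. Among 14 measured genes of the BTG/TOB family, CCR4-NOT and the arginine methyltransferases 2 rose, Btg1 and Prmt3 (0.77). That share was not above the 17.2% called in either direction over all members, of which 9.29% rose. Prmt1 stood at 12.90 and 13.07 untreated and 12.73 and 12.70 starved and did not pass (-0.27, adjusted p = 0.0937).

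Secreted signals moved in both directions. Of 19 chemokines and cytokines 3 rose and 5 fell. Il6, an inflammatory cytokine, fell from 5.64 and 6.02 to 3.09 and 3.80, and Ptx3, a soluble pattern recognition protein, rose from 9.20 and 8.65 to 11.37 and 10.81. The changes were -2.39 ± 0.40 and 2.17 ± 0.35 (limma adjusted p = 0.00386 and 0.00351), with no overlap. Tnfsf11, which encodes RANKL, fell by 1.93, Cxcl1 by 1.65, Ccl2 by 0.95 and Socs3 by 0.95, and Il11 and Csf1 rose by 1.24 and 0.69. Without KO replicate 1 only 1 of these genes rose and 1 fell, while without replicate 2 the counts stayed at 3 and 5. Of 9 EGF receptor ligands 2 rose and none fell. This share was near the 17.2% called in either direction over all members and above the 9.29% that rose. Areg, amphiregulin, stood at 6.23 and 6.46 and then at 9.01 and 9.09, a rise of 2.70 ± 0.19 (adjusted p = 6.83e-05), and Btc rose from a mean below 3 and was at least 3.15-fold higher. When any single array other than KO starved replicate 1 was left out, 1 of the 9 rose.

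Interferon-inducible genes differed between the KO replicates. The median change of 17 members was -0.56, but it was 0.04 without KO replicate 1 and -1.09 without replicate 2. At a limma adjusted p under 0.05, 1 gene rose and 1 fell, a share not above the 17.2% over all members. Ifit3 stood at 7.49 and 4.44 untreated and 3.80 and 4.22 starved, and Usp18 at 6.73 and 3.23 before and 3.31 and 2.87 after starvation. In both genes the first untreated array was far above the second, the starved arrays were close to each other, and neither passed (adjusted p = 0.156 and 0.187). The first KO replicate was also the one with the higher macrophage markers, and the part of those cells in any gene that differed between the replicates was not tested. Ifit2, the member that rose, went from 6.88 and 6.84 to 7.68 and 8.07 (change 1.02, adjusted p = 0.0234).

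**Figure D4:**
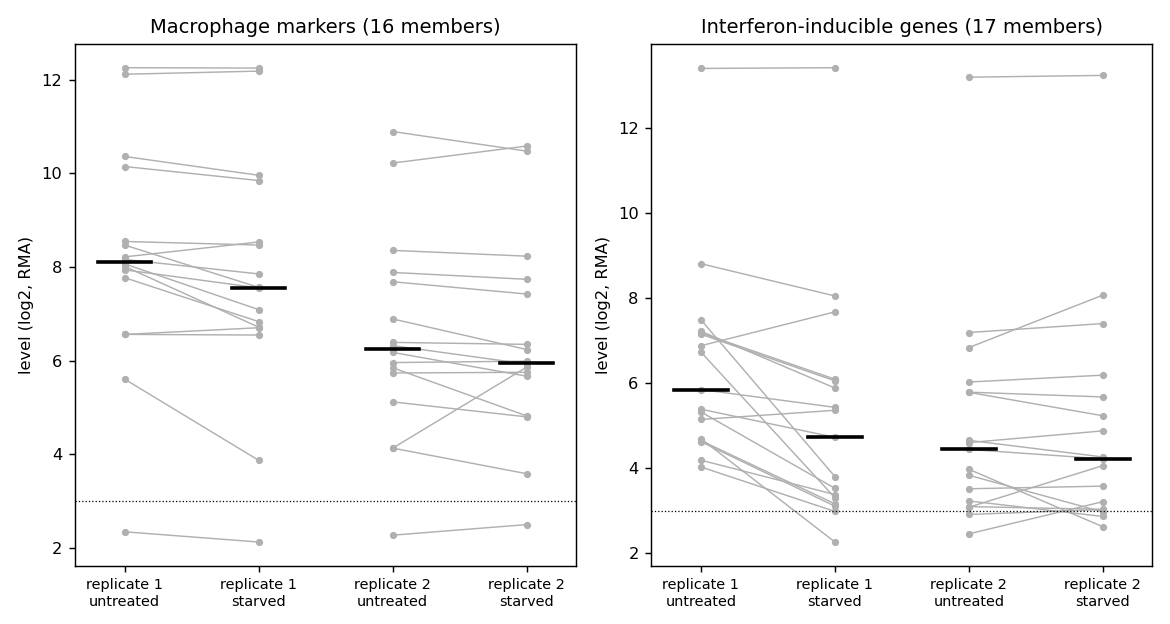
Levels (vertical axis, log2 RMA values) of 16 macrophage markers and 17 interferon-inducible genes on the 4 Btg1 KO arrays, 1 grey line a gene from untreated to starved within a replicate number, with the median as a black bar. Macrophage markers stand higher in replicate 1 than in replicate 2 in both conditions, with medians of 8.12 against 6.25 and 7.56 against 5.96, and the median change of the interferon-inducible genes is -1.09 within replicate 1 and 0.04 within replicate 2.

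Markers of cell types passed the test in part, and those of fibroblasts more often than the 17.2% over all members. Of 12 fibroblast markers 1 rose (Ddr2, 0.83) and 3 fell, Prrx1 by 0.77, Col1a2 by 0.63 and Fstl1 by 0.61, and the median of the 12 was -0.61. None of them rose and 1 fell without KO replicate 1, and none rose and 3 fell without replicate 2. None of 5 endothelial, 6 epithelial and 3 adipocyte markers passed the limma test. Of 5 muscle markers 1 fell, the actin Acta1 (-1.32), and of 5 neural markers 2 fell, Nes (-0.94) and Gap43 (-1.24). The fall of Acta1 did not pass without untreated replicate 2 or starved replicate 1 of KO, and 1 neural gene fell when any single KO array was left out. Of 14 genes of the IGF axis 2 fell, the imprinted RNA H19 by 1.28 and Igfbp6 by 0.52, a share not above the 17.2% called over all members, and none fell without KO starved replicate 1 or without KO replicate 1 or 2. Of 20 immediate early and feedback genes 2 rose (Dusp4, 1.00, and Klf4, 0.73) and 2 fell (Klf2, by 1.28, and Ier3, by 0.34), a share near the 17.2% over all members, and none passed without KO replicate 1. Of 14 matrix proteases and inhibitors 1 rose and 2 fell, a share near the 17.2% over all members. Mmp11 was higher by 1.00, the urokinase gene Plau lower by 1.69 and Mmp14 lower by 0.72. None of 6 genes of the TXNIP and arrestin-domain list passed, and of 2 measured sterol efflux genes 1 rose, Nr1h2 by 0.48, which did not pass when any single KO array was left out.

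Some of the largest changes lay outside these lists. Rragd, a Rag GTPase that signals amino acid supply to mTORC1 at the lysosome, went from 3.04 and 3.07 to 6.28 and 6.61, and Chchd10, a protein of the mitochondrial intermembrane space, from 8.87 and 7.80 to 11.34 and 11.38. Rragd thus rose from just above background, and the changes were 3.39 ± 0.40 and 3.03 ± 0.29 (limma adjusted p = 0.000903 and 0.000344). Fam110c rose by 3.39, the teneurin Tenm4 by 3.31, Lck, a Src-family kinase known from T cells, by 3.10, Rpp25, a subunit of RNase P, by 2.96, the cell adhesion genes Cdsn and Cxadr by 2.91 and 2.76, and Fam83g by 2.73.

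On the falling side, Mrvi1, a smooth muscle protein of the cGMP pathway, stood at 8.74 and 8.75 and fell to 5.92 and 5.93. The replicates were nearly equal in both conditions and the drop was 2.82 ± 0.36 (limma adjusted p = 0.00121). Ppp1r14a, an inhibitor of myosin phosphatase, fell by 2.62, the sulfotransferase Chst12 by 2.77, Angptl1 by 2.63, and the proliferation genes Kif4, Ckap2l and Pclaf by 2.80, 2.76 and 2.55. The histone genes H2ac12 and H2ac15 fell by 2.55 and 2.52, but their near-identical copies may share probes. For 3 more genes the arrays of a group spread widely. Dio3, the deiodinase that inactivates thyroid hormone, stood at 7.36 and 4.82 and then 3.65 and 2.78, Rgcc at 7.06 and 5.27 before and 2.52 and 3.84 after starvation, and the unnamed locus LOC100048556 at 8.16 and 5.91 before and 5.07 and 2.74 after starvation. Their drops of 2.88, 2.98 and 3.13 had standard errors of 0.73, 0.71 and 0.81.

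The WT cells were set against this response to show where it differed. On the same rows 3161 (26.7%) changed in WT cells, 1673 of which rose (14.1%) and 1488 fell (12.6%), 946 genes had risen and 836 had fallen in KO and WT cells alike, and the log2 changes correlated across the 11845 rows with Pearson's r = 0.734, a description over genes that are not independent. The difference between the responses, tested in the same limma fit, passed for 0 members (0%), while 762 (6.43%) had an unadjusted p under 0.05, and the smallest adjusted p was 0.245. Of the 727 genes that changed by 2-fold or more in KO cells, 460 (63.3%) changed less than in WT cells. They were 200 of the 321 that rose and 260 of the 406 that fell. Signed by the direction of the KO change, the median KO minus WT difference of the 727 was -0.17. These 727 were chosen on their KO values and include ATF4 targets. Whether the ATF4 list differed from them was not tested. For the 20 ATF4 and CHOP regulators the median of the KO minus WT difference was -0.33, and 2 of them had an unadjusted p under 0.05. The median over all members, -0.005, pools genes that rose and genes that fell. Ddit3 rose by 2.95 in KO and by 4.27 in WT cells, and Gadd45a, from the GADD45 list, by 3.22 and 4.61. The untreated means of Ddit3 were 9.10 in KO and 8.34 in WT cells and the starved ones 12.05 and 12.61, and those of Gadd45a were 8.71 and 7.78 untreated and 11.93 and 12.40 starved, and the KO minus WT differences, 0.76 and 0.93 before and -0.56 and -0.47 after starvation, did not pass (adjusted p = 0.164, 0.155, 0.302 and 0.485). The differences in response of -1.32 (95% interval -2.13 to -0.51) and -1.40 (-2.36 to -0.44) did not pass over all members (adjusted p = 0.628 and 0.69). Atf3 differed by -0.70 (-2.57 to 1.18) and Slc7a11 by 0.04 (-0.81 to 0.89), so neither was shown to differ or to be alike.

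By the smallest p of this difference, 5 rows stood first. LOC100044702 was near background in all KO arrays, and in WT cells it fell from a mean of 6.20 to below 3 and was at least 9.18-fold lower, taking 3 as its starved level. Ccl2, a monocyte chemokine, went from 8.76 and 8.68 to 7.74 and 7.80 in KO and from 8.78 and 9.16 to 5.93 and 6.35 in WT cells, so that it fell by 0.95 and by 2.83. Both starved KO arrays lay above both starved WT arrays, and the difference in response was 1.88 ± 0.26 (adjusted p = 0.245). Cd248, a stromal surface protein, and the serine protease Prss23 also had smaller drops in KO cells (differences of 1.05 and 0.88), and Lgals3, galectin-3, rose less (-0.73), all 3 with an adjusted p of 0.469. Starved KO minus starved WT was 1.63 for Ccl2, 1.43 for Cd248, 1.37 for Prss23 and -0.51 for Lgals3. These passed (limma adjusted p = 0.00673, 0.0016, 0.00118 and 0.0258), and the untreated differences did not (adjusted p = 0.518, 0.154, 0.0795 and 0.229). For LOC100044702 only the untreated difference passed (adjusted p = 0.0167). All these rows were chosen on the same values. The macrophage markers also stood higher on the KO than on the WT arrays (medians of 5.96 to 8.12 against 4.90 to 5.16), and their part in these differences was not tested.

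**Figure D5:**
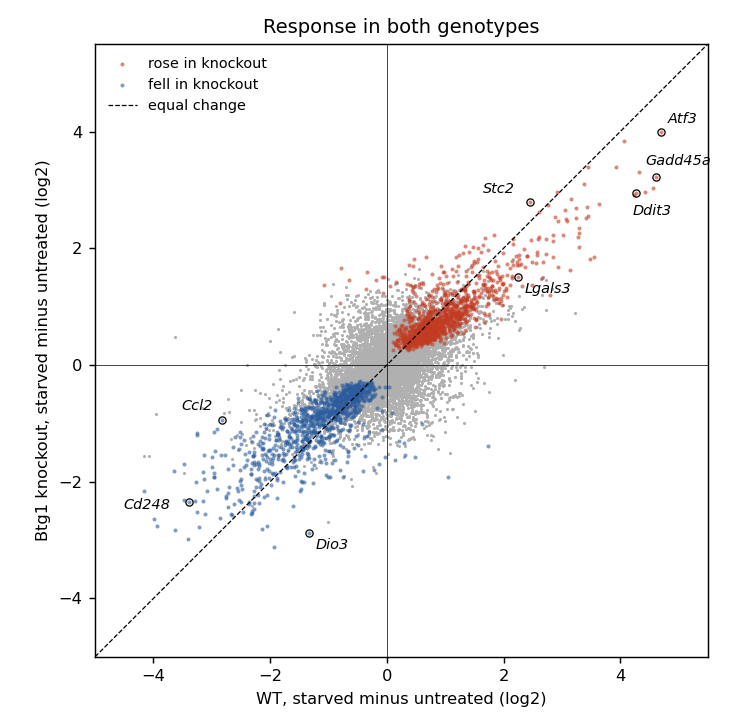
Log2 change with starvation in Btg1 KO cells (vertical axis) against the change in WT cells (horizontal axis) for the 11845 rows, with rows that rose in KO cells in red, rows that fell in blue and the line of equal change dashed. Ddit3 and Gadd45a lie to the right of the line, at 2.95 and 3.22 in KO against 4.27 and 4.61 in WT cells.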

How the data were processed

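Total RNA of WT and Btg1-/- MEFs was labelled and read on Illumina MouseRef-8 v2 bead chips. The deposited log2 values had been normalized by the authors with the RMA method in ArrayStar, after extraction in GenomeStudio 2011.1 as per the submitters' processing notes. A second deposited table holds the authors' group means and fold ratios. Its means differed from those of the single arrays by at most 5e-06 over 18109 shared rows, its ratios were not used, and 23 and 29 rows were in only 1 table. Detection values and bead counts were not used, so the number of arrays limits the precision. Of 18132 rows, 14305 carried a RefSeq symbol of GRCm38.p6, 2706 a synonym, 199 an older name of a gene with another row and 922 only the name in the table. The 199 were kept as separate rows. A listed gene was read by 1 row, the brighter one where more than 1 matched its name.

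A linear model of the 4 group means over all 8 arrays was fitted to the 11845 members in R 4.3.3 (limma 3.58.1). The variance was moderated along an intensity trend, which left 4 residual and added 5.3 prior degrees of freedom, with Benjamini-Hochberg adjustment over all members. The code was tested on simulated data. The WT arrays enter the estimate of the spread and the tests between genotypes. Changes that passed and had a starved or untreated mean below 3 are given as at least the fold against 3, and list medians use fitted values unless stated. Named genes were Btg1, Btg2, Atf4, Prmt1, 12 ATF4 targets of the study, the 15 higher and the 15 lower genes with the largest change among those that passed, had both means at 3 or more and did not overlap, up to 6 members of each list and the 5 smallest p-values of the difference between genotypes. Some genes that the rule selects are not reported here. Members named beyond this rule were chosen after their values were seen. The members, the gene lists and the rule were chosen with earlier results of these data known, so no list is independent support for its direction.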

Additional observations from a re-analysis of the deposited data

Results flagged for a closer look

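Dcaf8, which encodes a substrate receptor of a CUL4 ubiquitin ligase, moved in opposite directions in the 2 genotypes. Its row, under an older name, stood at 4.89 and 3.87 in untreated and 3.08 and 2.90 in starved KO cells, and at 2.74 and 2.89 in untreated and 4.79 and 4.30 in starved WT cells. Taking 3 as the lower level, it was at least 2.60-fold lower after starvation in KO cells (limma adjusted p = 0.0448) and at least 2.91-fold higher in WT cells (adjusted p = 0.0122), with no overlap of starved and untreated arrays in either. The fitted KO minus WT difference of -3.12 did not pass over all members (adjusted p = 0.469), and it is not an exact size, since the lower group of each genotype lay below the level of 3. It was the 1 member that passed the test in opposite directions.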

How the results depend on the processing

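Against 2038 calls, the KO response had 1265 with the 4 KO arrays alone, 1090 without the intensity trend, 869 at an adjusted p under 0.01 and 727 with a log2 change of 1 or more. Leaving out 1 array of the 8 gave 1043 to 1803 calls. With both arrays of KO replicate 1 or of KO replicate 2 left out, alternatives added after seeing the data, there were 785 and 896, of which 730 and 810 were among the 2038. An unpaired t-test with equal variances on the 4 KO arrays gave 1 gene after adjustment (Mrvi1, adjusted p = 0.027) and 2171 at an unadjusted p under 0.05. The study describes no t-test for its arrays, from which genes were taken by level and fold change. Another filter on low values, renewed quantile normalization, median centring and robust moderation gave 1760 to 2210 calls. The count of genes with a fold change of 3 or more was 274, and 350 to 421 without 1 KO array, 444 and 503 without KO replicate 1 or 2, 159 where both replicate-numbered pairs passed, and 1125 at a fold change of 2. The cause of these shifts was not tested.

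The replicate numbers were not used as pairs, since no label says that equal numbers share an embryo or a day. The deviations of equal numbers correlated with r = 0.263 in KO and 0.104 in WT cells over 2 pairs. With the replicate number as a block, 2518 genes were called, 2025 of them among the 2038. The difference between genotypes then passed for 3 genes, AA467197, Ccl2 and Rgs4 (adjusted p = 0.0236, 0.0236 and 0.0152), against 0 in the fit without the block and in every other alternative run for it. Under the block 8 fibroblast markers, 5 IGF axis genes and 8 other matrix genes fell, against 3, 2 and 4. Of 282 genes named or listed first by the rule, 189 were called. Apart from the t-test, 112 to 189 of these stayed called by alternative, and none of the 282 reversed a called direction.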
